A study of Mus musculus with 38 samples.

Results

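The potassium channel genes of the M-current and the afterhyperpolarization were followed through RNA sequencing of mouse dentate gyrus granule cells: Kcnq3 and Kcnq5, which encode pore subunits of the voltage-gated Kv7 family, Kcnn1, Kcnn2 and Kcnn3, which encode the calcium-gated SK channels, and Kcnma1 and Kcnmb4, which encode the pore and the neuronal beta4 subunit of the BK channel. They were taken by gene symbol, and all 7 have a row among the 23420 genes of each count file. Each of 19 mice gave 1 library of 10 dVenus+ cells and 1 library of 10 dVenus- cells, so that every comparison was made within a mouse. The animals were male Arc::dVenus mice on a C57BL/6J background, 8 to 12 postnatal weeks old, in which the promoter of the activity-regulated gene Arc drives a destabilized fluorescent protein, and all groups carry this transgene. Green cells are therefore cells with recent activity at that promoter, and the non-green cells were their neighbours in the same slices. Fear conditioned mice (FC, 12 mice) received tones paired with foot shocks in a chamber, no shock controls (NS, 4 mice) went through the same procedure without shocks, and home cage controls (HC, 3 mice) stayed in their housing. Cells were drawn into a patch pipette with their nucleus, 24 h after training in the trained groups.

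The M-current is a slow potassium current that opens near the firing threshold, does not inactivate and holds neurons back from repetitive firing. Its channels are tetramers of Kv7 subunits, among them those of Kcnq3 and Kcnq5, and muscarinic receptors close them by depleting the membrane lipid that keeps them open. SK channels are opened by calcium through bound calmodulin and carry the medium afterhyperpolarization between spikes, whereas BK channels respond to voltage and calcium together and shape the spike and the fast afterhyperpolarization.

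The members are spread over 7 chromosomes of the mouse genome (GRCm38, gene ends from the GENCODE annotation). Kcnq3 lies on chr15:65986387-66286642, Kcnq5 on chr1:21398403-21961942, Kcnn1 on chr8:70842049-70863258, Kcnma1 on chr14:23289431-24014491 and Kcnmb4 on chr10:116417861-116473878, all on the minus strand. Kcnn3, on chr3:89520164-89675132, is on the plus strand, as is Kcnn2, whose position is given with its values. The pore subunits share a selectivity filter, the glycine, tyrosine and glycine residues that select potassium, and its coding sequence is shown for Kcnn1, Kcnn3 and Kcnma1 because it lets the SK and BK families be seen side by side. Each stretch is 60 bases of exon from the GENCODE transcript, and the capitals mark the 9 bases that encode those residues.

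Kcnn1: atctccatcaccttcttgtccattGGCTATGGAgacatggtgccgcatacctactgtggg
Kcnn3: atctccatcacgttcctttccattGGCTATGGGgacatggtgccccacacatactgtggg
Kcnma1: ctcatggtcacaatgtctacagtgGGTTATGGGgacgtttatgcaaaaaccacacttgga

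These stretches lie on chr8:70850630-70850689 for Kcnn1, on chr3:89645494-89645553 for Kcnn3 and on chr14:23528386-23528445 for Kcnma1. Kcnn1 and Kcnn3 were identical at 53 of the 60 bases (88.3%). Each of them matched Kcnma1 at 29 of 60 (48.3%). The beta4 gene Kcnmb4 encodes no pore and holds no such stretch. Over whole transcripts, the share of 50-base runs, the read length, that also occur in another gene was 0.0887% for Kcnq3, 1.78% for Kcnq5, 2.68% for Kcnn1, 6.82% for Kcnn2, 0 for Kcnn3 and 5.45% for Kcnma1. It reached 30.7% for Kcnmb4. Runs were matched on either strand, so these shares can include overlap with antisense genes at the same place. Reads with more than 1 alignment were not counted, and how many that removed from each member was not separated. The only members with a run in common were Kcnn1 and Kcnmb4. Exons of antisense genes overlap those of Kcnq5, Kcnn1, Kcnn2, Kcnma1 and Kcnmb4, and the library kit does not mark strand, so reads of the antisense genes cannot be told apart from those of these 5 members. Kcnq3 and Kcnn3 have no such overlap.

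Library totals ran from 1352288 to 18394761 counts on genes, and the number of genes with a count ran from 7037 to 13286. The factors that scale libraries to a common composition (TMM, the trimmed mean of M-values) ran from 0.306 to 1.83. Levels are given as normalised CPM, that is, counts relative to the library total after that scaling. Arc was higher in dVenus+ than in dVenus- cells in 12 of 12 FC, 4 of 4 NS and 3 of 3 HC mice, and 5 of the 12 FC dVenus- libraries still held 10 or more Arc counts. By the prefix of their sample identifiers, the FC libraries fall into 3 sets, called batches here, with 2, 4 and 6 mice in them, and the labels do not say what the prefix stands for. A single further prefix marks every control library, so the level of a gene in FC against NS or HC cannot be told apart from the batch. The granule cell gene Prox1, a transcription factor, had at least 10 counts in 36 of 38 libraries, with 1 count in the lowest FC dVenus+ library. The markers of the sampled cells were themselves uneven between the dVenus classes. In FC, 4 of 10 granule cell marker genes (C1ql2, Calb1, Plk5 and Stxbp6) were called lower and 1 (Pdzd2) higher in dVenus+ cells, where 2.84% of all tested genes were called lower and 1.5% higher, 2 of 5 pan-neuronal genes (Rbfox3 and Camk2a) were called lower, and 4 of 12 microglial genes (Aif1, Csf1r, C1qa and C1qc) were called higher.

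**Figure D1:**
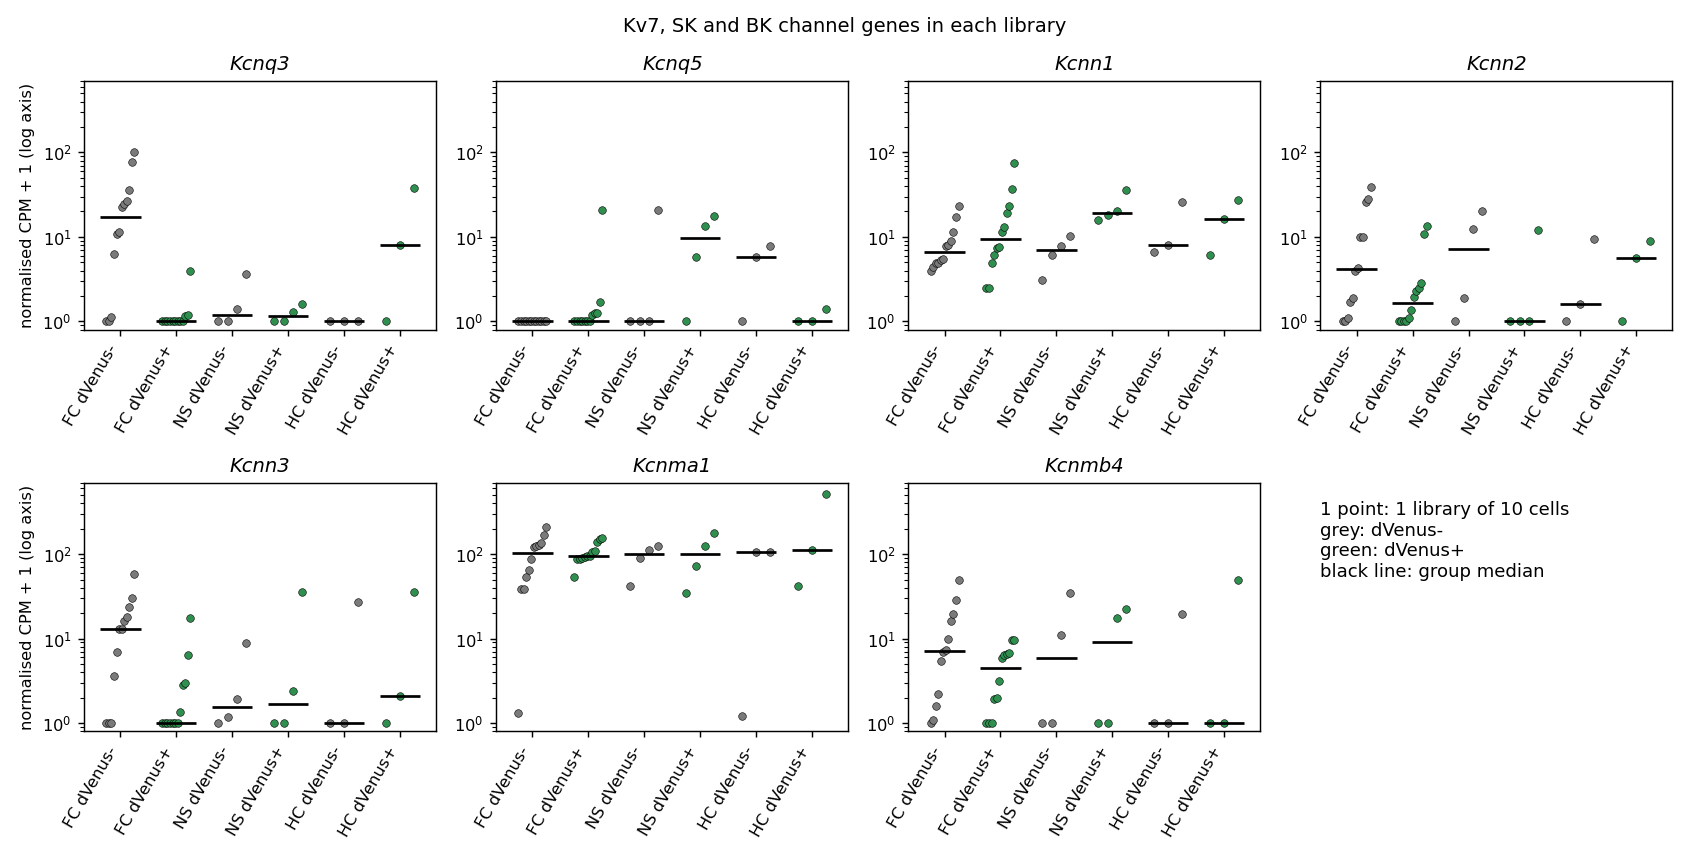
Normalised CPM plus 1, on a log axis, of the 7 genes in each of the 38 libraries, by training group and dVenus class, with the group median as a black line and values at 1 standing for no count. Kcnma1 has a median near 100 in every group, with single libraries from 0.201 to 509 CPM. Kcnq3 is high mainly in the FC dVenus- libraries, and Kcnq5 is absent from all 12 of them.

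On a per-length scale, the mean normalised level over all 38 libraries was highest for Kcnma1, at 6.29 CPM per kb of exon. Kcnn1 followed with 2.77 and Kcnmb4 with 2.60 CPM per kb. The other SK genes Kcnn3 and Kcnn2 had 0.773 and 0.739 CPM per kb, and the Kv7 genes Kcnq3 and Kcnq5 had 0.640 and 0.298 CPM per kb. Detection followed a similar order. At least 10 counts were present in 37 of 38 libraries for Kcnn1 and in 36 for Kcnma1, in 23 for Kcnmb4, 18 for Kcnn2, 16 for Kcnn3, 13 for Kcnq3 and 8 for Kcnq5. With 10 cells in a library, a gene that only some cells express can be missed altogether, and fewer cells with a transcript cannot be told apart from less of it in each cell. When the 6 groups of libraries were ordered by their mean CPM for each gene, 0 of the 35 differences between neighbouring groups exceeded the larger of their SDs.

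**Figure D2:**
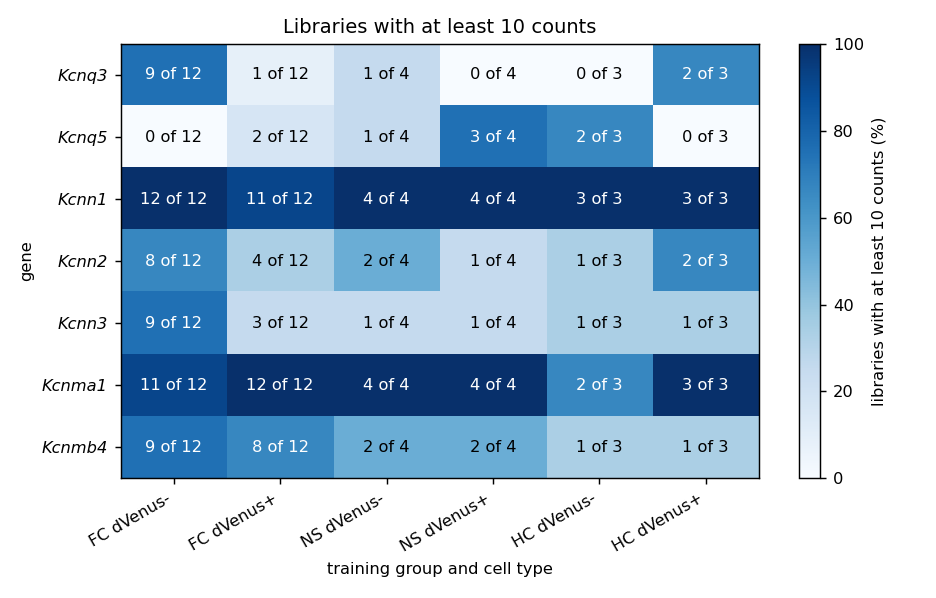
Number of libraries with at least 10 counts of each gene (rows) in each training group and dVenus class (columns), shaded by the percentage of the group's libraries. Kcnq3 goes from 9 of 12 FC dVenus- libraries to 1 of 12 FC dVenus+ libraries, while Kcnn1 and Kcnma1 reach 10 counts in 37 and 36 of the 38 libraries.

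Kcnq3 gave the clearest difference. It reached 10 counts in most dVenus- libraries of the conditioned mice and in 1 of their dVenus+ libraries. In the 12 FC dVenus- libraries its level ran from 0 through a median of 16.2 to 99.9 normalised CPM, with a mean of 25.6 ± 31.5 (SD, n = 12). In the 12 FC dVenus+ libraries it ran from 0 through a median of 0 to 2.97 CPM, with a mean of 0.278 ± 0.851 (SD, n = 12). The green cells of mouse 13 held 36 of the 39 counts found in all FC dVenus+ libraries, against 3766 counts in the dVenus- libraries. The dVenus+ library was lower in 10 of 12 FC mice, and both libraries were at 0 in the remaining mice 3 and 4. In mouse 7, 1 of the 10, the dVenus- library held only 3 counts (0.132 CPM) against 0. At least 10 counts were present in 9 of 12 dVenus- and 1 of 12 dVenus+ libraries. A gap of at least 8 libraries in that direction was seen in 53 of 13456 genes that reached 10 counts in at least 3 FC libraries (0.394%).

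The count filter for testing required at least 10 counts in as many libraries as there were mice, which 5 of the 7 members met in FC. Kcnq3 and Kcnq5 did not, and their values come from the same fit without that filter (18089 genes, of which 1.68% were called, with 1.13% called lower in dVenus+ cells). A call needed a Benjamini-Hochberg adjusted p under 0.05 and a log2 fold change beyond 1 in size, in edgeR's quasi-likelihood test with the mouse as a block. Kcnq3 fell in FC dVenus+ cells, with a log2 fold change of -6.27 ± 1.12 (SE) and an adjusted p of 0.00419. The call stood whichever of the 12 mice was left out, with adjusted p from 0.00401 to 0.0214 and log2 fold changes from -8.90 to -5.82, the former without mouse 13. With 10 counts required in only 3 FC libraries Kcnq3 was tested and called as well (2.7% of 13456 genes called). Without the count filter, DESeq2 (10.8% of genes called) and edgeR's older quasi-likelihood method (0.735% called) also called it. The exact two-sided sign-flip permutation test over the 12 mice gave a mean within-mouse difference of -3.27 on the log2(CPM + 1) scale and p = 0.00195, unadjusted. Kcnq3 was lower in 1 of 2, 3 of 4 and 6 of 6 mice of the 3 batches, with mean within-mouse differences of -2.31, -2.57 and -4.06. Fitted on the 6 mice or on the 4 mice alone, it was not called (log2 fold changes -5.61 and -9.99, adjusted p = 0.207 and 0.479).

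The control groups did not show that pattern. In NS, Kcnq3 had 0, 0, 0.396 and 2.64 CPM in the dVenus- libraries of mice 18, 19, 20 and 21. It had 0, 0.298, 0.605 and 0 CPM in their dVenus+ libraries. The highest NS value, 2.64 CPM, was below the level of 9 of the 12 FC dVenus- libraries. In HC, no dVenus- library held a count, which over the group allows at most 0.122 CPM by library totals without the TMM scaling. The dVenus+ libraries of mice 15, 16 and 17 had 0, 36.8 and 7.03 normalised CPM. Pooled over the HC group by such totals, Kcnq3 was thus at least 52.7-fold higher in dVenus+ than in dVenus- cells, set against 3 counts. Without both libraries of mouse 16 it was at least 20.3-fold higher. Neither control comparison passed the test. The log2 fold change was -1.52 ± 2.60 (SE) in NS, with an adjusted p of 0.859. In HC the adjusted p was 0.533, and the fitted fold is no bound because 1 side is at 0. High Kcnq3 was therefore found in the non-green cells of FC mice and in the green cells of 2 of 3 HC mice.

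Whether the dVenus difference itself differed between training histories was tested in 1 fit of all 38 libraries, in which 0 of 14075 genes were called in either contrast (0% of genes, edgeR). At an unadjusted p under 0.05 there were 1152 genes for FC against NS and 1304 for FC against HC, and DESeq2 called 1192 (8.47%) and 1583 (11.2%). For Kcnq3 the difference of FC against NS was -4.66 ± 5.16 (SE, log2) with an adjusted p of 0.866. Against HC, edgeR gave an unadjusted p of 0.000255 and an adjusted p of 0.318. DESeq2 called that difference, at an adjusted p of 0.00116, and so did edgeR without the mouse as a block, at 0.0435, in a fit that called 0.0568% of genes. Over the alternatives to the main fit, the adjusted p of this contrast ran from 0.00116 to 0.640. The difference of Kcnq3 between FC and HC thus depended on the method, and the HC side rests on 3 mice of another batch.

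**Figure D3:**
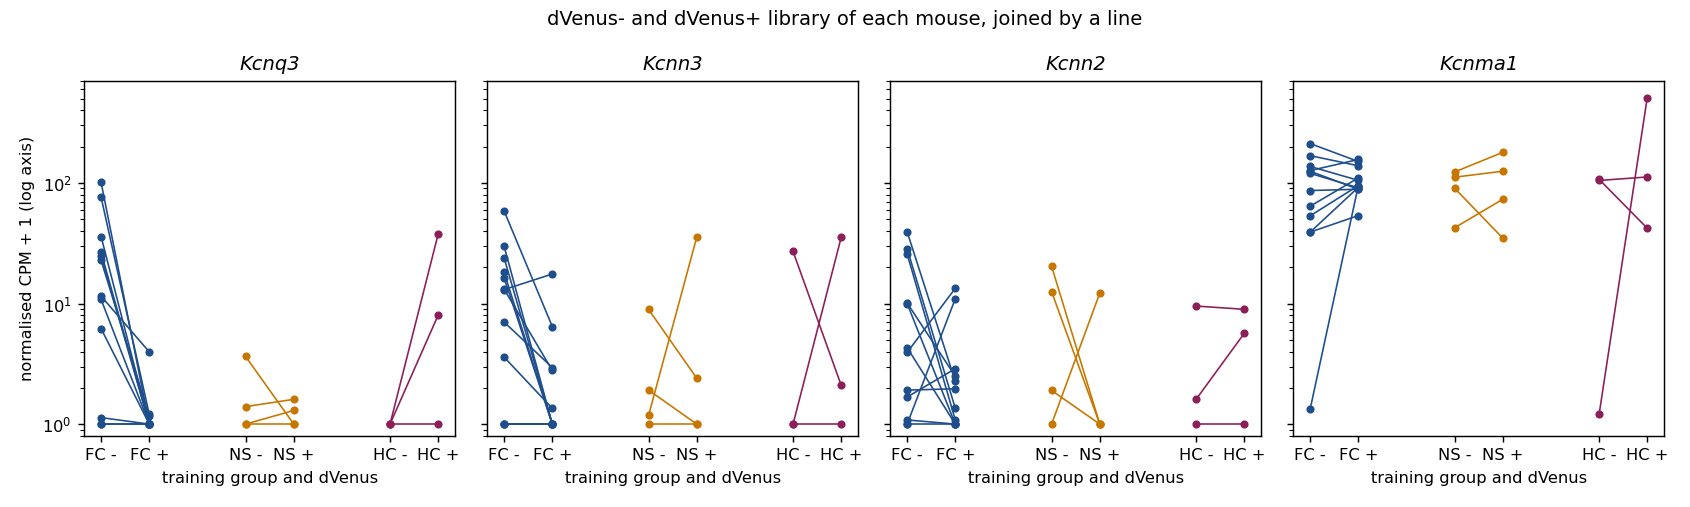
Normalised CPM plus 1 (log axis) of Kcnq3, Kcnn3, Kcnn2 and Kcnma1 in the dVenus- and dVenus+ library of each mouse, joined by a line, for FC (blue), NS (orange) and HC (purple). Kcnq3 falls along 10 of 12 FC lines and rises along 2 of 3 HC lines, and the Kcnma1 lines of FC mice stay within about the same range apart from mouse 4.

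The fall of Kcnq3 in FC went together with other differences between the dVenus classes. The pan-neuronal genes (Rbfox3, Snap25, Syt1, Map2 and Camk2a) differed by a mean of -0.999 ± 0.421 (SD, n = 12) within a mouse on the log2(CPM + 1) scale and were lower in 12 of 12 mice, with summed levels of 999 to 5498 CPM in dVenus+ and 2688 to 5627 CPM in dVenus- libraries. The 10 granule cell markers differed by -1.40 ± 1.12 (SD, n = 12) on that scale, lower in 11 of 12 mice, with summed levels of 274.5 to 1474 CPM and 716 to 2768 CPM. The 12 microglial genes summed to between 36.1 and 2146 CPM in dVenus+ and between 1.28 and 764 CPM in dVenus- libraries. Their mean difference was 1.55 ± 1.97 (SD, n = 12), and 2 of 12 mice were lower. Among transcripts kept in the nucleus, Malat1 (1.53 ± 0.25, adjusted p = 0.000553, higher in 12 of 12 mice) and Snhg11 (1.59 ± 0.43, adjusted p = 0.0307) rose in FC dVenus+ cells and Miat fell (-2.29 ± 0.55, adjusted p = 0.0142), in log2 fold change by edgeR. Malat1 and Snhg11 also rose in NS. The immature granule cell gene Neurod1 (-2.34, adjusted p = 0.0436) and the interneuron gene Gad1 (-2.03, adjusted p = 0.0412) fell in FC. Gad1 was the only 1 of 4 tested interneuron genes called, and Gad2 was at 0.39. As a list, the 7 interneuron genes differed by -0.289 ± 1.41 (SD, n = 12) on the log2(CPM + 1) scale, lower in 7 of 12 mice. In the controls, the means of 3 of these lists shifted in the same direction on that scale. Granule cell markers differed by -1.11 ± 0.86 (SD, n = 4) in NS and -0.98 ± 1.15 (n = 3) in HC. Pan-neuronal genes differed by -0.45 ± 0.49 and -0.92 ± 0.13, and microglial genes by 2.22 ± 2.70 and 2.37 ± 2.96. Beside these shifts, Kcnq3 was higher in dVenus+ cells in 2 of 3 HC mice. The part of the marker differences in the Kcnq3 result was not tested.

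Kcnq5 showed the opposite detection pattern at a low level. Its 12 FC dVenus- libraries held no count at all, in a total of 116203444 counts, which over the group allows at most 0.0258 CPM. Like the folds below, that limit uses library totals without the TMM scaling. The 12 FC dVenus+ libraries ran from 0 through a median of 0 to 20.0 CPM. They summed to 146 counts, of which 129 came from mouse 4, and 5 of 12 held any count. Against 3 counts over the dVenus- group, Kcnq5 was at least 66.9-fold higher in the green cells, and at least 7.71-fold higher without both libraries of mouse 4. It was not called in FC (adjusted p = 0.337 without the count filter). The sign-flip permutation test gave an exact p of 0.0625, the smallest it can give when only 5 mice hold any count. In NS the dVenus+ libraries of mice 18 to 21 had 4.72, 16.7, 12.5 and 0 CPM and the dVenus- libraries 0, 19.7, 0 and 0 CPM, with a log2 fold change of 2.12 ± 1.68 (SE) and an adjusted p of 0.725. In HC the order was turned, with 0, 0 and 0.398 CPM in dVenus+ and 0, 4.83 and 6.81 CPM in dVenus- libraries of mice 15 to 17 (log2 fold change -4.49 ± 2.76, adjusted p = 0.533). Kcnq3 and Kcnq5 thus ran in opposite directions in FC and in HC, as values and with only the FC fall of Kcnq3 passing the test.

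Among the SK genes, Kcnn3 was the only one called. Its 12 FC dVenus- libraries ran from 0 through a median of 12.1 to 57.6 CPM, with a mean of 14.5 ± 16.5 (SD, n = 12). The 12 FC dVenus+ libraries ran from 0 through a median of 0 to 16.6 CPM, with a mean of 2.17 ± 4.81 (SD, n = 12). At least 10 counts were found in 9 of 12 and 3 of 12 libraries, the green exceptions being mice 10, 11 and 13. Kcnn3 was lower in the dVenus+ library in 8 of 12 mice, higher in mouse 10, and at 0 in both libraries of mice 4, 9 and 12. The log2 fold change was -3.13 ± 0.93 (SE) with an adjusted p of 0.0494, in a fit that called 422 of 9709 genes (4.35%, with 2.84% called lower and 1.5% called higher). Kcnn3 was 1 of the 5 tested members called there. This call sat at the threshold. It was lost in each of the 9 fits without a mouse in which Kcnn3 could be tested (adjusted p = 0.0549 to 0.111), that is without mouse 1, 3, 4, 5, 6, 7, 9, 12 or 14, and without mouse 10, 11 or 13 the gene did not meet the count filter. The exact sign-flip permutation test gave p = 0.00781, unadjusted, and the mean within-mouse differences were -4.54, -2.50 and -1.04 in the batches of 2, 4 and 6 mice.

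In the control groups Kcnn3 was scattered. The NS libraries of mice 18 to 21 had 0.914, 0.181, 0 and 7.92 CPM in dVenus- cells and 0, 34.5, 0 and 1.40 CPM in dVenus+ cells. Those of HC mice 15 to 17 had 26.0, 0 and 0 CPM in dVenus- and 1.10, 34.4 and 0 CPM in dVenus+ cells. The log2 fold changes were 0.84 ± 2.68 (SE, adjusted p = 0.918) in NS and 0.26 ± 4.11 (adjusted p = 0.984) in HC. The difference of the dVenus change between FC and NS was -3.98 ± 2.76 (SE, log2, adjusted p = 0.732), and between FC and HC it was -3.59 ± 3.05 (adjusted p = 0.739). Kcnq3 and Kcnn3 were both lower in the dVenus+ library in 7 of 12 FC mice.

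Kcnn2 (chr18:45268860-45686024) was also lower in FC by its fitted value, without passing the test. Its FC dVenus- libraries ran from 0 through a median of 3.12 to 38.4 CPM and its dVenus+ libraries from 0 through a median of 0.657 to 12.4 CPM. It was lower in 7, higher in 4 and absent from both libraries in 1 of the 12 mice. The log2 fold change was -1.92 ± 1.09 (SE) with an adjusted p of 0.370, and in the 6 mice of the largest batch it was 0.39 ± 1.32. In NS it had 0, 0.903, 19.3 and 11.5 CPM in the dVenus- and 11.2, 0, 0 and 0 CPM in the dVenus+ libraries of mice 18 to 21 (log2 fold change -1.75 ± 2.45, adjusted p = 0.830). DESeq2 without the count filter gave -8.18 there and called it, at an adjusted p of 0.0371, in a fit that called 4.58% of genes, against 0.00689% with edgeR. In HC it had 8.53, 0.604 and 0 CPM in dVenus- and 7.96, 4.65 and 0 CPM in dVenus+ libraries (log2 fold change 0.53 ± 1.46, adjusted p = 0.935).

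Kcnn1 was the SK gene found in every library. Its FC dVenus- libraries ran from 2.90 through a median of 5.63 to 21.9 CPM and its FC dVenus+ libraries from 1.49 through a median of 8.54 to 74.0 CPM, the highest being mouse 4. The groups overlapped, with higher values in green cells in 7 of 12 mice (log2 fold change 0.76 ± 0.72, adjusted p = 0.641). The batches pointed different ways, with mean within-mouse differences of -2.02, 2.05 and 0.30 on the log2(CPM + 1) scale in the batches of 2, 4 and 6 mice. In NS the dVenus+ libraries had 14.7, 35.1, 16.9 and 19.2 CPM and the dVenus- libraries 5.18, 9.39, 6.73 and 2.08 CPM in mice 18 to 21, so that the NS groups did not overlap and all 4 mice were higher in green cells. With 4 mice the exact sign-flip permutation test cannot go below p = 0.125, which is the value it gave, and the log2 fold change of 1.92 ± 1.41 (SE) had an adjusted p of 0.701, in a fit where 4 of 8187 genes (0.0489%, 0.0122% lower and 0.0366% higher) were called. In HC it had 24.8, 7.05 and 5.64 CPM in dVenus- and 26.1, 5.12 and 15.3 CPM in dVenus+ libraries of mice 15 to 17 (log2 fold change 0.29 ± 1.61, adjusted p = 0.973).

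Kcnma1, the BK pore, had the highest level per kb of the members. Its FC dVenus- libraries ran from 0.331 through a median of 102.3 to 211 CPM and its FC dVenus+ libraries from 52.6 through a median of 93.9 to 155 CPM. The means were 96.7 ± 61.1 and 104.4 ± 29.6 CPM (SD, n = 12 each). The log2 fold change was 0.44 ± 0.48 (SE) with an adjusted p of 0.693, and 7 of 12 mice were higher in green cells. In NS it had 111, 122, 41.5 and 89.3 CPM in the dVenus- and 124, 178, 72.2 and 33.9 CPM in the dVenus+ libraries of mice 18 to 21 (log2 fold change 0.05 ± 1.01, adjusted p = 0.995). In HC it had 104, 0.201 and 106 CPM in dVenus- and 111, 509 and 41.1 CPM in dVenus+ libraries of mice 15 to 17 (log2 fold change 0.88 ± 1.99, adjusted p = 0.923). A pair of dVenus- libraries stood apart. The FC library of mouse 4 held 4 Kcnma1 counts among 10669983, with 10130 genes detected, and the HC library of mouse 16 held 1 count among 9096451, with 7037 genes detected, the lowest number of all libraries. In every other library Kcnma1 had at least 145 counts.

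Kcnmb4, the beta4 subunit that slows BK gating in granule cells, was lower in green cells in 8 of 12 FC mice, higher in 3 and absent from both libraries of mouse 9. Its FC dVenus- libraries ran from 0 through a median of 6.08 to 48.3 CPM and its dVenus+ libraries from 0 through a median of 3.54 to 8.65 CPM. The log2 fold change was -1.05 ± 0.84 (SE) with an adjusted p of 0.565, so the groups were not told apart by the test. In NS the dVenus- libraries had 0, 33.9, 9.90 and 0 CPM and the dVenus+ libraries 0, 0, 16.3 and 21.3 CPM (log2 fold change 0.61 ± 1.94, adjusted p = 0.945). In HC only mouse 15 of the dVenus- libraries, with 18.5 CPM, and mouse 17 of the dVenus+ libraries, with 48.0 CPM, held any count (log2 fold change 1.20 ± 5.33, adjusted p = 0.933). The pore and the beta4 subunit therefore differed in detection, with 10 counts or more in 36 and 23 of the 38 libraries.

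**Figure D4:**
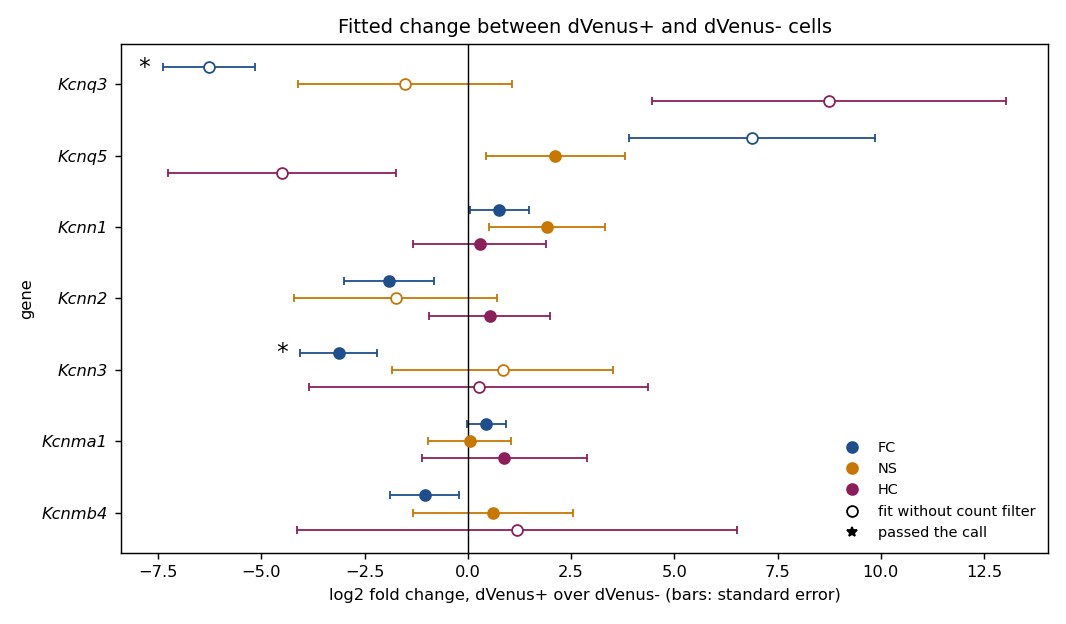
Fitted log2 fold change of dVenus+ over dVenus- cells for the 7 genes in FC (blue), NS (orange) and HC (purple), with the standard error as bars, open symbols for genes that did not meet the count filter and a star where the call was passed. Kcnq3 and Kcnn3 in FC carry the stars, at -6.27 and -3.13, and fitted values beside a group at 0, such as Kcnq3 in HC and Kcnq5 in FC, are no bounds.

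Over the members as a group, 3 of the 5 tested in FC were lower in dVenus+ cells, with a median log2 fold change of -1.05, beside 54.1% of all tested genes lower and a median of -0.11. In NS 4 members and in HC 3 members met the count filter, and none was called by edgeR or by DESeq2 in these fits, with 0 members at an unadjusted p under 0.05. By edgeR few genes were called there at all, with 0% of 7588 genes called in HC by edgeR, where 532 genes had an unadjusted p under 0.05 and the older quasi-likelihood method called 0.0264%. DESeq2 called 8.13% of genes in NS and 8.24% in HC. The median log2 fold change of the tested members was 1.26 in NS and 0.53 in HC, against 0.08 and 0.02 for all genes tested. Without the count filter, which let in all 7 members, it was 0.562 against 0.268 in NS. In HC it was then 0.443 for the members and 0.443 for all genes.

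The genes around the channels were followed in 6 further lists, and 4 of the 69 genes tested in FC were called (5.8%, against 4.35% of all genes). In NS and HC 0 of 66 were called by edgeR, where 0.0489% and 0% of all genes were. Of the remaining Kv7 genes and their KCNE partner subunits, 7 of 8 had a row, 1 was tested in FC and 0 were called. Of 15 genes that control the M-current, 12 were tested in FC, with 0 called and a median log2 fold change of -0.60. The smallest p-values belonged to the muscarinic receptor Chrm1 (-1.17 ± 0.38, adjusted p = 0.0732, lower in 12 of 12 mice), the ubiquitin ligase Nedd4l (-0.97 ± 0.35, adjusted p = 0.112) and the phospholipase Plcb1 (-1.14 ± 0.41, adjusted p = 0.113).

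In the SK channel complex, 10 of 11 genes were tested in FC and 0 were called, with a median log2 fold change of -0.02. Of the genes for calmodulin, the calcium sensor of SK channels, Calm2 and Calm3 gave -0.76 ± 0.24 and -0.92 ± 0.29 (adjusted p = 0.0636 and 0.0690). Of 10 other BK and Slo family genes 2 were tested, Kcnt2, a sodium-activated potassium channel (-3.22 ± 1.00, adjusted p = 0.0565, lower in 10 of 12 mice), and the BK auxiliary gene Lrrc55 (0.21 ± 1.28, adjusted p = 0.961).

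The list of calcium sources for the afterhyperpolarization was tested in full, with 2 of 10 genes called lower and 0 called higher in FC and a median log2 fold change of -0.75. Ryr1, a ryanodine receptor that releases calcium from the endoplasmic reticulum, fell from 88.9 ± 88.6 to 7.13 ± 10.7 CPM (SD, n = 12 each), with a log2 fold change of -3.74 ± 0.84 and an adjusted p of 0.00759. Hpca, which encodes the calcium sensor hippocalcin, fell from 548 ± 410 to 137 ± 102 CPM, with a log2 fold change of -1.90 ± 0.41 and an adjusted p of 0.00655. Each was lower in 11 of 12 mice. Of 58 other potassium channel genes, 34 were tested in FC. The auxiliary Kv4 subunit gene Kcnip2 fell (-2.51 ± 0.65, adjusted p = 0.0234, lower in 12 of 12 mice). The two-pore channel gene Kcnk1 rose (1.65 ± 0.42, adjusted p = 0.0195, higher in 12 of 12 mice). The list's median log2 fold change in FC was -0.48. In NS and HC, Kcnk1 had 1.95 ± 1.10 and 1.19 ± 1.19 (adjusted p = 0.609 and 0.788). Kcnip2 had 0.028 ± 1.39 and -3.02 ± 2.30 there (adjusted p = 0.997 and 0.756).

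**Figure D5:**
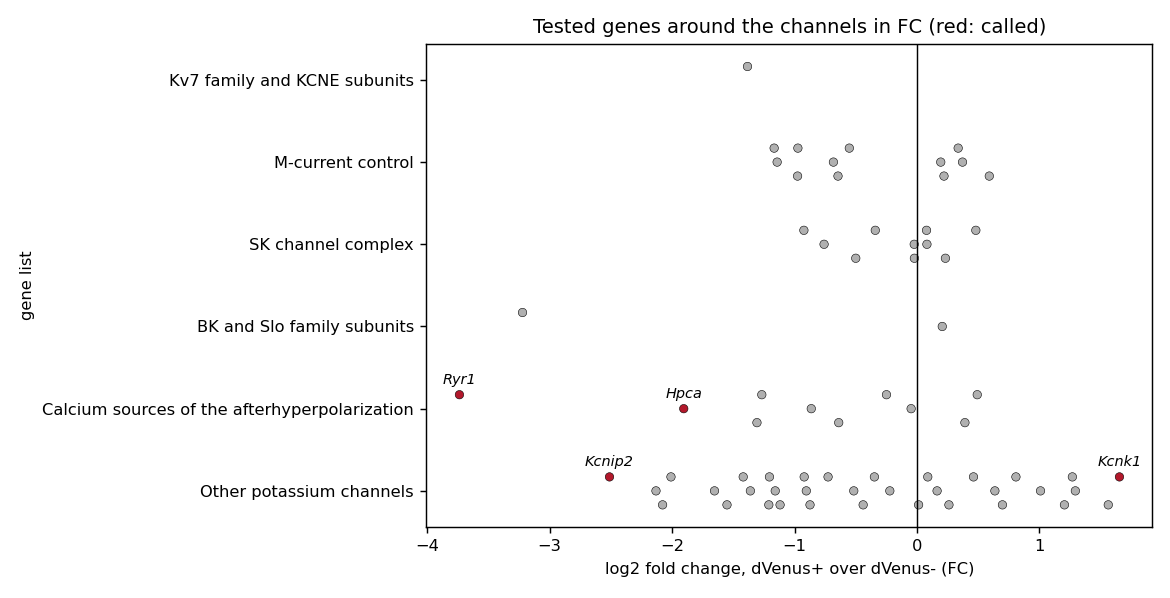
Log2 fold change of dVenus+ over dVenus- cells in FC for each tested gene of the 6 lists of genes around the channels, 1 point a gene, with called genes in red and named. Ryr1, Hpca and Kcnip2 are called on the left of 0 and Kcnk1 on the right.

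The genes whose level across the 38 libraries was most like that of Kcnq3 were sought by Spearman's rho of log2(CPM + 1) over the 9709 genes tested in FC. The first 5 were Mef2d (rho = 0.684), Bcl9l (0.669), Grina (0.654), Dnajc24 (0.647) and Prss36 (0.642), over libraries that share mice and batches. None of them was called in FC, with log2 fold changes from -2.80 for Prss36 to -1.04 for Grina. Among the members, Kcnq3 was closest to Kcnn3 (rho = 0.407, n = 38 libraries), and rho between Kcnq3 and Kcnma1 was 0.076.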

How the data were processed

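RNA of 10 aspirated cells per library was made into full-length cDNA (Smart-seq2), prepared with Nextera XT and sequenced as single 50-base reads. Per the labels and the study's methods, the authors aligned reads to mm10 with TopHat2 2.0.13 and counted reads per gene with HTSeq 0.6.0 on NCBI transcripts. The deposited values are raw counts per gene, used here for 38 libraries. Groups came from the labels, and the mouse paired the libraries. The description entries of some NS and HC libraries name another library, so titles and sample identifiers were used. Reads outside genes (16.4% to 59.7% of uniquely placed reads) were left out. The members and gene lists were chosen with earlier results of these data known.

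Differences were tested with edgeR 4.0.16 (TMM, quasi-likelihood test with bias-adjusted deviances, mouse as block, R 4.3.3), for genes that reached 10 counts in 12 (FC), 4 (NS) or 3 (HC) libraries or more, and in 3 of all 38 for differences between training histories. Members below the filter were taken from the same fit without it. Fold changes are log2, dVenus+ over dVenus-, with p adjusted over all genes tested. Levels are TMM-normalised CPM, and the permutation test used log2(CPM + 1). Named genes were the members, Arc, the called genes and the 3 smallest p of each list in FC, and the 5 genes most like Kcnq3, except that some genes and sequences are not reported here. Where a group was at 0, folds were set against 3 counts over the group, by library totals without the TMM scaling. These intervals and floors cover counting error only. Deviations of the paired libraries from their group means correlated weakly (FC median 0.041, range -0.028 to 0.231), and the pairing rests on the shared animal. Scripts were tested on simulated data. Alternatives used DESeq2 1.42.0, its size factors, other filters, no block, left-out mice, and single batches. Another, edgeR's older quasi-likelihood method, and the bounds without 1 mouse were chosen after seeing the data. The authors' combined count table was not used here.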

Additional observations from a re-analysis of the deposited data

Results flagged for a closer look

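In the NS group, whose dVenus classes have 4 libraries each, 5 of 14 sets of values held 1 library far above the remaining 3. These were Kcnq3 in dVenus- cells of mouse 21 at 2.64 normalised CPM, Kcnq5 in dVenus- cells of mouse 19 at 19.7 CPM, Kcnn2 in dVenus+ cells of mouse 18 at 11.2 CPM, Kcnn3 in dVenus+ cells of mouse 19 at 34.5 CPM and Kcnn3 in dVenus- cells of mouse 21 at 7.92 CPM. Dixon's criterion marks about 1 in 20 sets by chance where values are normally distributed. In each case here the other libraries were at or close to 0, so that rate is no yardstick for these sets.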

How the results depend on the processing

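The fall of Kcnq3 in FC kept its direction and its call in 20 of 22 alternatives, including edgeR without the mouse as a block (log2 fold change -5.94, adjusted p = 0.000585), and missed the call in the 6 mice and in the 4 mice of a single batch. Fewer mice were tested there. Kcnn3 was called with DESeq2 (adjusted p = 0.0386) and missed in all 18 other alternatives counted here in which it was tested. DESeq2 without the count filter, which is not in that count, called it too, in a fit that called 10.8% of genes. The number of members called in FC, 1 in the main fit, was 0 with DESeq2's size factors, without the block, with the older quasi-likelihood method, in the 6 or the 4 mice of 1 batch, without mice 3 and 5, and without mice 6, 7 and 14. Leaving out single mice gave 0 to 0. It was 1 with 10 counts required in 3 libraries (2.7% of genes called), without the filter and without mice 4 and 7, where the gene was Kcnq3 in place of Kcnn3. In NS and HC it was 0 in every fit with edgeR, single mice left out included (0 to 0), and with DESeq2 after the filter. For FC against HC it was 1 with DESeq2 and 1 without the block, Kcnq3 both times. The count of all genes called in FC, 422, moved by over 1.5 times with DESeq2 (1635), with the older method (137), in the 4 mice (12) or the 6 mice (15) of 1 batch, without mice 3 and 5 (277) and without mice 6, 7 and 14 (154). In NS, where it was 4, it was 666 with DESeq2, 11 with its size factors, 13 without the block, 0 with the older method, 1 without the filter and 0 to 2 with 1 mouse left out. In HC, where it was 0, it was 625 with DESeq2 and 2 with the older method. Between training histories, where it was 0, omitting the block gave 14 for FC against NS and 8 for FC against HC. Directions turned only for members that were not called. Kcnn2 in FC gave 0.39 in the 6 mice of 1 batch. In NS, Kcnn3 gave -0.61 with DESeq2 and -1.40 with the older method, Kcnma1 -0.026 without the filter and Kcnmb4 -0.12 without the block. Leaving out single NS mice gave -3.0 to 0.85 for Kcnq3, -2.78 to 3.89 for Kcnn3, -0.31 to 0.46 for Kcnma1 and -1.29 to 2.78 for Kcnmb4. In HC, Kcnn3 gave -0.16 without the block, and leaving out single mice gave -0.38 to 0.60 for Kcnn1, -0.25 to 0.53 for Kcnn2, -4.78 to 8.86 for Kcnn3, -0.78 to 3.69 for Kcnma1 and -9.12 to 10.5 for Kcnmb4. For FC against NS, Kcnq5 gave -2.17 with DESeq2 and -2.02 with the older method, Kcnn2 4.70 with DESeq2, 0.073 with its size factors and 3.51 with the older method, and Kcnma1 -0.056 without the block. The cause of these changes was not tested, and in the fits of a single batch fewer mice cannot be told apart from the batch. Scaled to the smallest library, the libraries with 10 counts became 0 for Kcnq3 in FC dVenus+ and NS dVenus-, 1 in HC dVenus+, 1 for Kcnq5 in FC dVenus+ and in HC dVenus-, 7, 5 and 1 for Kcnn1 in FC dVenus+, FC dVenus- and NS dVenus-, 2, 5 and 0 for Kcnn2 in FC dVenus+, FC dVenus- and HC dVenus+, and 3 for Kcnmb4 in FC dVenus+. NS and HC had 4 and 3 mice, and the part of depth and of the number of animals in the calls there was not tested. Simulated counts held, for each comparison, 200 genes changed by a log2 of 3 or 4 in size. The call found 123 of them in FC, 17 in NS, 1 in HC and 4 for FC against NS. Even large changes were thus mostly left uncalled in the controls and between training histories.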

Other observations

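The number of members with at least 10 counts in a library had a median of 5.5 of 7 in FC dVenus- libraries (range 1 to 6) and of 3 in FC dVenus+ libraries (range 1 to 6). It was 4 in both NS classes, 4 in HC dVenus+ and 3 in HC dVenus- libraries. Over all genes, the median number with at least 1 count was 11732 in FC dVenus- and 10893.5 in FC dVenus+ libraries. Their median totals were 9.96e+06 and 7.08e+06 counts on genes. The part of depth in the member counts was not tested. Pairs of members varied together only weakly over the 38 libraries. Spearman's rho was highest for Kcnq3 with Kcnn3, at 0.407, and for Kcnn2 with Kcnn3, at 0.368, and lowest for Kcnq5 with Kcnn3, at -0.319.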
